A study of Mus musculus with 6 samples.

Results

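Chromatin accessibility was examined at 8 inflammasome genes in white cells of mouse peripheral blood. The 8 genes were the sensors Nlrp3, Nlrc4, Nlrp1b and Aim2, the adapter Pycard, the caspase genes Casp1 and Casp4, and the pore gene Gsdmd, out of 78252 genes annotated on the main chromosomes. The samples were 3 control libraries and 3 libraries of high-altitude de-acclimatization (HADA). By the study's methods the animals were young adult male C57BL/6j mice with no engineered allele described. HADA mice had lived for weeks in a chamber at low air pressure and were then returned to normal oxygen, while control mice stayed at normal oxygen. The time between the return and the blood sample of this assay is not given in the sources used here. ATAC-seq marks open DNA by the insertion of adapters with the Tn5 transposase, and peaks had been called in each library by itself. The cells were leukocytes left after red cell lysis, with no sort by type, although the study's results text speaks of mononuclear cells.

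An inflammasome is a protein platform that assembles in the cytosol when a sensor meets a sign of infection or damage. The sensor recruits caspase-1, in most cases through the adapter ASC. The caspase matures some cytokines of the interleukin-1 family and cuts gasdermin D, whose released fragment opens pores in the plasma membrane. In blood, monocytes and neutrophils are the best known users of this machinery.

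Peaks that shared bases in any library were merged into consensus regions, and a region belonged to a gene when a summit lay in the gene body or within 3 kb of an annotated transcription start. This gave 27 regions at the 8 genes among 62876 regions in all, from 130 of 250978 peaks. The genes held 23, 19 and 20 peaks in control 1 to 3, and 23, 23 and 22 in HADA 1 to 3. A region present in all 6 libraries is called shared. Of the 27 regions, 15 were shared (55.6%, against 38.1% of all regions), 2 were present in every HADA library and no control library, 1 in every control library and no HADA library, and 9 had another pattern. Each of the 8 genes had at least 1 shared region. Aim2, with 115.5 kb the longest of the 8 genes in the annotation, held 13 of the 27 regions. Nlrc4 held 4, Nlrp1b 3, Nlrp3 and Casp4 2 each, and Pycard, Casp1 and Gsdmd 1 each. The map of peaks by library shows these patterns.

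**Figure D1:**
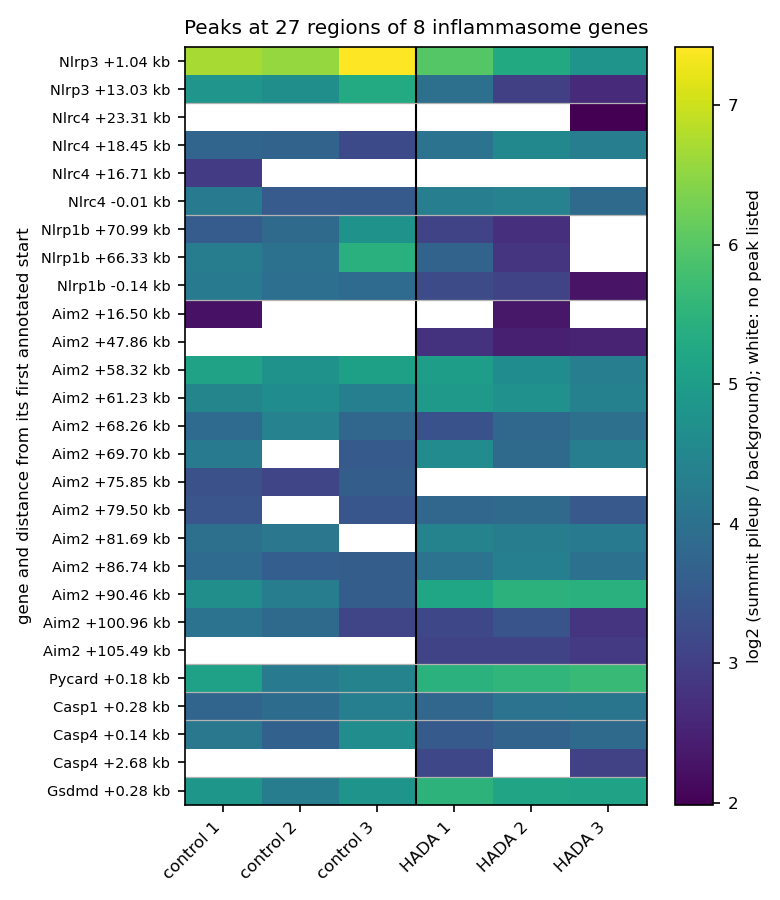
Peaks at the 27 regions (rows, named by gene and distance of the summit from the gene's first annotated start in kb) in 3 control and 3 HADA libraries (columns). Colour is the log2 of the summit pileup over the library's background, and white means that no peak was listed. The Nlrp3 region at +1.04 kb is the brightest in the control libraries, and the white cells lie in Aim2, Nlrc4, Nlrp1b and Casp4.

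The height of a peak is given as the summit pileup, the number of fragments that overlap the summit, and as that number over the library's genome-wide background pileup, which stood for depth. The background pileup was 1.69, 2.05 and 1.83 in control against 2.34, 1.99 and 2.27 in HADA, so that control 2 was deeper than HADA 2. The median shared region was higher in HADA by 0.38 on the log2 scale after division by the background. The main comparison used the log2 of pileup + 1, centred on the median shared region of each library, so its differences are relative to that shift. Across all 23970 shared regions 18.0% were higher and 24.4% lower in HADA by limma at an adjusted p of 0.05, 4318 against 5853 regions, and after division by the background the split was 7636 higher against 4454 lower. Nothing in the labels says that the libraries came from separate animals, so p-values measure the spread between these libraries.

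Sequences of 6 regions are printed here because the regions they come from differed between groups or, at Nlrc4, hold 2 matches to 1 pattern. Each is read from the GRCm39 genome within 100 bp of a summit, 5′ to 3′ on the gene's strand and without annotated UTR bases. Capitals mark matches on either strand to the letters GAGGAAGT (PU.1), TTGCNNAA (CEBP), TGTGGT (RUNX), GAAANNGAA (IRF) or TGACNNNGC (NRF2). The lines give, in order, the Nlrp3 start region (chr11:59433334-59433511, + strand), the Nlrp3 intron region (chr11:59445327-59445527, + strand), the upstream region of Nlrp1b (chr11:71121601-71121801, − strand), the intron region of Nlrc4 (chr17:74747616-74747816, − strand), the Aim2 intron region that was higher in HADA (chr1:173268800-173269000, + strand), and 1 of the 2 Aim2 intron regions that were lower, the one at 100.96 kb from the first start (chr1:173279300-173279500, + strand).
Nlrp3 start: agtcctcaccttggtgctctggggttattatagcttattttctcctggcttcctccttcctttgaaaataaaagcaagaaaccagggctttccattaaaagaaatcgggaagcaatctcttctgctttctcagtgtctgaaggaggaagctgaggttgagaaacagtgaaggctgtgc
Nlrp3 intron: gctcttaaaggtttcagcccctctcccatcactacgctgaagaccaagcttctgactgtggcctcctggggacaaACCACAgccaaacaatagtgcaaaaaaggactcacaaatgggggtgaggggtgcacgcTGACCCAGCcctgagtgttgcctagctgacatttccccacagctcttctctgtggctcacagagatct
Nlrp1b upstream: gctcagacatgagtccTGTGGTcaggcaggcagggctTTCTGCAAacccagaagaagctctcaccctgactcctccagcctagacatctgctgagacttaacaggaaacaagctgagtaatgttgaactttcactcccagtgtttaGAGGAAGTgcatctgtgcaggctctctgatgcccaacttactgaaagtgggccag
Nlrc4 intron: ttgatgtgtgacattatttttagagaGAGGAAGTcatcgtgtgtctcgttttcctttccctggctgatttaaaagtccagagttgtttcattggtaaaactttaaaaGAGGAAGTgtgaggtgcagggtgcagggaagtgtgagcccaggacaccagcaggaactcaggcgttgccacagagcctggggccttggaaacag
Aim2 higher: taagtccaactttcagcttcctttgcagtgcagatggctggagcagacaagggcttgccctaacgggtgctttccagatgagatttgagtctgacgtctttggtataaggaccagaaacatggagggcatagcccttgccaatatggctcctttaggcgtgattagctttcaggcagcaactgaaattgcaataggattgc
Aim2 lower, 100.96 kb: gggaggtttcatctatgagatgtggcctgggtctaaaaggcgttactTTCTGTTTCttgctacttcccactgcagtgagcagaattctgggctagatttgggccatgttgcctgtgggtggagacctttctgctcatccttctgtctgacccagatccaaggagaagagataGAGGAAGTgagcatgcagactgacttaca

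The PU.1 letters, which the myeloid and B-cell regulator PU.1 is known to bind, were found in 3 of the 15 shared regions, at Nlrp1b, at the Nlrc4 intron with 2 matches in 1 window, and at the lower Aim2 region at 100.96 kb. Over all shared regions 4.05% of windows of this length held them. The CEBP letters were in 4 windows (7.65% of all), the RUNX letters in 3 (14.7% of all) and the IRF letters in 2 (5.83% of all). The NRF2 letters were in 3 (8.78% of all), 2 of them at Nlrp3, where the match of the start window falls outside the printed bases. The AP-1 letters TGANTCA were in 1 window (4.58% of all), at the other lower Aim2 region, 58.32 kb from the first start. The letters CCGGAAGT (ETS, 2.56% of all) and GGANTTTCC (NF-kB, 0.809% of all) were in 0 of the 15 windows. The windows of Pycard, Casp1 and Gsdmd, which are largely untranslated exon, and of the higher Aim2 region held no match to the 8 letter patterns.

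Of the 15 shared regions, 2 were higher in HADA (Pycard and 1 Aim2 region), 6 were lower (both Nlrp3 regions, Nlrp1b, 2 Aim2 regions and Casp4), and 7 did not pass the limma test. As shares, 2 of 15 and 6 of 15 stand beside the 18.0% and 24.4% of all shared regions given above. The median log2 difference of the 15 regions was −0.41, against −0.04 for all shared regions. Their differences ran from −2.06 to 0.79, while the 5th and 95th percentiles of all shared regions were −1.58 and 1.02, so that both Nlrp3 regions lay below the lower of these limits. Without HADA 2 or HADA 3 the higher count was 0, and without HADA 3 the lower count was 3. After division by the background 3 of the 15 were higher and 3 lower, which left both Nlrp3 regions and Nlrp1b on the lower side and added the Nlrc4 intron region on the higher side. Over background, each HADA library lay above each control library at 5 of the 15 regions and below at 3, where 42.6% of all shared regions were above and 17.4% below in the same way. In these mixed cells fewer cells of a type and less open chromatin per cell cannot be told apart.

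**Figure D2:**
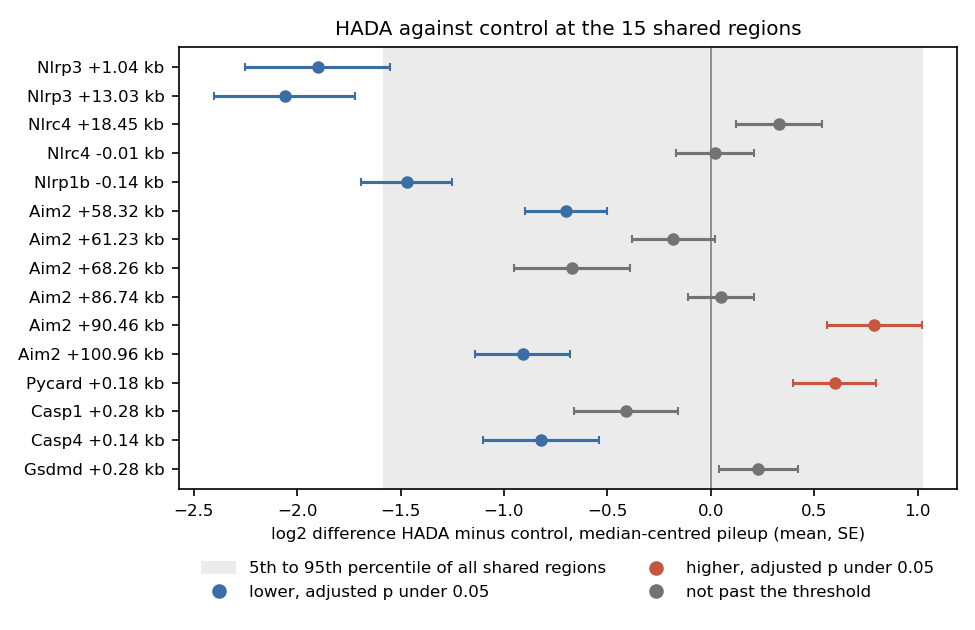
Log2 difference, HADA minus control, of median-centred summit pileup at the 15 shared regions (limma, points with SE, 3 libraries a group). The grey band runs from −1.58 to 1.02, the 5th to 95th percentile of all 23970 shared regions. Both Nlrp3 regions lie to the left of it, Nlrp1b and 3 other regions are lower within it, and Pycard and 1 Aim2 region are higher.

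NLRP3 senses disturbances such as potassium loss and is the sensor most often studied in blood myeloid cells. Its start region (chr11:59432078-59434699) had its summit in an intron, 78 bp upstream of the nearest annotated start. Summit pileups there were 178, 193 and 313 in control against 148, 78 and 63 in HADA. Over background they were 105, 94.0 and 171 against 63.2, 39.2 and 27.7, so each HADA library lay below each control library. The means were 123 ± 41.6 in control and 43.4 ± 18.1 in HADA (SD, n = 3 each; two-sided exact permutation p = 0.1, the smallest that 3 against 3 can give). The median-centred log2 difference of −1.90 ± 0.35 (SE; limma adjusted p = 0.00927) corresponds to a 3.74-fold lower height. Without control 3, the library with the tallest peak, the difference was −1.58 (limma adjusted p = 0.0146).

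The Nlrp3 start region was also the tallest of the 15 shared regions in each control library, and its place among the 15 was 1, 3 and 4 in HADA 1, HADA 2 and HADA 3. Among all shared regions its pileup stood at percentile 85.5, 89.5 and 93.6 in control against 65.8, 50.3 and 41.8 in HADA. These ranks need no scaling between libraries. The percentiles did not overlap between groups, while the place among the 15 did, since HADA 1 had the same place as the control libraries. The peak was 2622, 2295 and 2520 bp wide in control against 2051, 1952 and 1628 bp wide in HADA. The local background, a coverage averaged around the summit by the peak caller that can include the peak itself, was 38.1, 32.4 and 59.5 in control against 25.1, 11.7 and 11.7 in HADA. The local background thus had the same direction as the height, at 23.6 times the genome-wide background in control and 7.24 times in HADA on average. By rank of the deposited fold over local background, the start region did not pass the test (0.16 in normal scores, HADA minus control, limma adjusted p = 0.59).

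A second Nlrp3 region lay in an intron, 13.03 kb from the first start of the gene (chr11:59445101-59446278). Pileups were 48, 53 and 72 in control against 37, 16 and 14 in HADA. Over background the means were 31.2 ± 7.19 and 10.0 ± 5.12 (SD, n = 3 each; exact permutation p = 0.1), again without overlap. The log2 difference of −2.06 ± 0.34 was the lowest of the 15 (limma adjusted p = 0.00847). Its height moved from percentile 42.9, 48.5 and 61.2 of all shared regions in control to 22.8, 7.6 and 3.3 in HADA. By fold over local background it did not pass the test either (−0.07 in normal scores, limma adjusted p = 0.88), with local backgrounds of 12.9, 10.2 and 18.3 against 6.47, 3.91 and 3.53. In both Nlrp3 regions HADA 1 was the highest HADA library and control 3 the highest control library.

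NLRP1B, a sensor cut by pathogen proteases, had its shared region 142 bp upstream of the start (chr11:71121389-71122097). Pileups were 31, 32 and 27 in control against 22, 17 and 11 in HADA. Over background these were 18.4, 15.6 and 14.8 against 9.40, 8.54 and 4.84, and the groups were apart. Means were 16.2 ± 1.89 and 7.59 ± 2.42 (SD, n = 3 each; exact permutation p = 0.1), and the log2 difference was −1.47 ± 0.22 (adjusted p by limma = 0.00831), or 2.78-fold lower. By rank of the fold the difference missed the threshold (−1.06 in normal scores, limma adjusted p = 0.0596). The gene's other regions lay deep in introns, at 66.33 and 70.99 kb from the first start. The region at 66.33 kb had pileups of 33, 33 and 79 in control and 31 and 14 in HADA 1 and HADA 2, and the region at 70.99 kb had 20, 30 and 49 in control and 20 and 13 in HADA 1 and HADA 2. Neither had a peak in HADA 3, so neither entered the test. Over background, the peaks of HADA 1 and HADA 2 were 13.2 and 7.03 at 66.33 kb, where control libraries had 16.1 to 43.2, and 8.55 and 6.53 at 70.99 kb, where control libraries had 11.8 to 26.8. On this scale each HADA library thus lay below each control library, or had no peak listed, at all 3 regions of Nlrp1b. By pileup, control 1 and HADA 1 were equal at 70.99 kb, at 20. Among all shared regions 17.4% lay below in this way over background. The share for regions that were not shared was not computed.

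NLRC4 responds to flagellin and secretion-system proteins bound by NAIP receptors, and its regions did not pass the limma test. At the start region (chr17:74765553-74766629, summit 14 bp upstream) pileups were 32, 24 and 21 in control against 46, 42 and 33 in HADA. Over background the means were 14.0 ± 4.26 and 18.4 ± 3.46 (SD, n = 3 each; exact permutation p = 0.2), which overlapped, and the log2 difference was 0.02 ± 0.19 (adjusted p by limma = 0.927). The intron region (chr17:74747337-74748216, 18.45 kb inside the gene, also within the long noncoding gene Gm65130 of the opposite strand) had pileups of 23, 27 and 17 in control against 39, 46 and 45 in HADA. There the groups were apart over background, at 12.0 ± 2.37 and 19.9 ± 3.22 (SD, n = 3 each; exact permutation p = 0.1), while the median-centred difference was 0.33 ± 0.21 (limma adjusted p = 0.221). After division by the background it was 0.73 (limma adjusted p = 0.0298), so the call at this region turned on the scaling. The other Nlrc4 regions were single peaks of pileup 13 in control 1 and 9 in HADA 3, at summits whose 50 bases occur 49 and 451 times in the genome. Whether reads could be placed on 1 copy there was not tested. The summits of the other 25 regions were unique.

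AIM2 senses DNA in the cytosol. Its annotated 115.5 kb hold 8 transcription starts, and its peaks lay between 16.50 and 105.49 kb from the first start, where the long noncoding genes Gm70266 and Gm70269 overlap part of it. The region at 16.50 kb, with pileups of 8 in control 1 and 10 in HADA 2, also lies in Cadm3 and within 3 kb of a start of that gene, so it may belong to either. Of the 6 shared regions of Aim2, 1 was higher, 2 were lower and 3 did not pass. Beside these stand the 18.0% higher and 24.4% lower of all shared regions. The region at 90.46 kb (chr1:173268041-173269354, intron, 13.64 kb from the nearest start) had pileups of 43, 40 and 22 in control against 85, 89 and 98 in HADA. Over background these were 25.5, 19.5 and 12.0 against 36.3, 44.7 and 43.1, with no overlap. Means were 19.0 ± 6.74 and 41.4 ± 4.44 (SD, n = 3 each; exact permutation p = 0.1), and the log2 difference was 0.79 ± 0.23 (adjusted p by limma = 0.0295), 1.72-fold higher. Leaving out HADA 2 or HADA 3 ended the call (limma adjusted p = 0.101 in both) at log2 differences of 0.74 and 0.71. Its peak spanned 761, 825 and 532 bp in control and 1314, 990 and 1295 bp in HADA.

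At 100.96 kb (chr1:173278970-173280020) the pileups were 28, 30 and 16 in control against 21, 21 and 16 in HADA, and they were lower by limma, with a log2 difference of −0.91 ± 0.23 (adjusted p = 0.0175). At 58.32 kb (chr1:173236429-173237264) they were 59, 55 and 62 against 77, 49 and 45, with a log2 difference of −0.70 ± 0.20 (limma adjusted p = 0.0287). Both were lower relative to the median shared region, but over background their groups overlapped and neither passed (limma adjusted p = 0.104 and 0.349). The call at 100.96 kb was lost without HADA 1 or HADA 3 (limma adjusted p = 0.054 and 0.0652), and the call at 58.32 kb without control 3, HADA 2 or HADA 3 (0.0562, 0.102 and 0.115). Quantile normalization of the libraries also ended the call at 100.96 kb (−0.52, limma adjusted p = 0.081), but not the one at 58.32 kb (−0.64, limma adjusted p = 0.0338). The shared regions at 61.23, 68.26 and 86.74 kb did not pass, with log2 differences of −0.18, −0.67 and 0.05 and limma adjusted p-values of 0.475, 0.0826 and 0.812. The region at 68.26 kb lies 56 bp upstream of an annotated start. A neighbouring start region at 69.70 kb had pileups of 31 and 21 in control 1 and control 3 and of 57, 29 and 45 in HADA, with no peak in control 2.

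The regions with a peak in all 3 libraries of a group and in 0 of the opposite group were all at Aim2. Those of HADA lay at 47.86 kb (chr1:173225999-173226588), with pileups of 16, 11 and 13, and at 105.49 kb (chr1:173283839-173284513), with 20, 17 and 17. Such regions made up 7.01% of all consensus regions, against 2 of 27 here. The one of control lay at 75.85 kb (chr1:173253971-173254432), with pileups of 17, 18 and 22, a pattern of 1.88% of all regions, against 1 of 27 here. A region without a listed peak has no height in the lists, and the lowest pileup called in a library was 7 to 9, so a lower peak there was not detectable. The heights along the gene show these regions beside the taller shared ones.

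**Figure D3:**
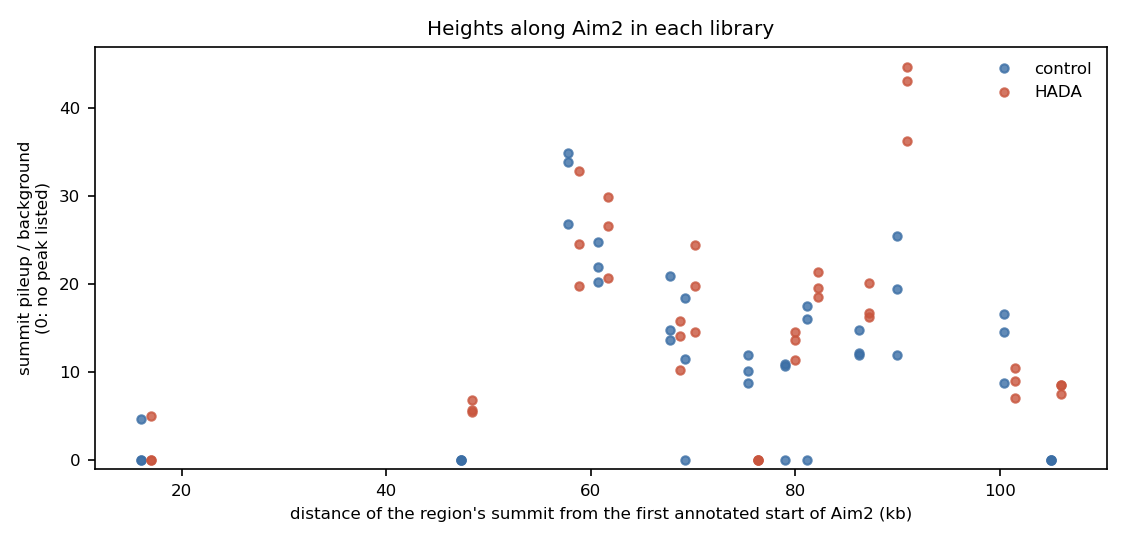
Summit pileup over background (vertical axis) at the 13 Aim2 regions by distance of the summit from the first annotated start in kb (horizontal axis). Points are libraries, shifted left for control and right for HADA, and 0 means that no peak was listed. At 90.46 kb the HADA libraries lie between 36.3 and 44.7 and the control libraries between 12.0 and 25.5, while at 100.96 kb the groups overlap.

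Pycard encodes ASC, the adapter that joins sensors to caspase-1. Its region (chr7:127592097-127593439) covers the start, overlaps Gm45205, a gene annotated on the opposite strand, and had its summit in an exon. Bases just upstream of the first start (chr7:127593040-127593189, − strand) lie inside the region. They are shown because this was the start region that was higher in HADA. The capitals mark the CEBP letters and then the PU.1 letters, both on the opposite strand. Bases upstream of the first starts of Casp1 and Gsdmd, read in the same way, held no match to the letter patterns. The share of matches in such stretches over all regions was not computed.
Pycard upstream: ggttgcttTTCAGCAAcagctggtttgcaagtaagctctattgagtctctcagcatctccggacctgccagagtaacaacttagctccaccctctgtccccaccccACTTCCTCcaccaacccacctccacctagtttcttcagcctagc
Summit pileups at Pycard were 58, 38 and 39 in control against 103, 94 and 115 in HADA. Over background these were 34.4, 18.5 and 21.3 against 44.0, 47.2 and 50.6, and each HADA library lay above each control library. Means were 24.7 ± 8.46 and 47.3 ± 3.28 (SD, n = 3 each; exact permutation p = 0.1). The median-centred difference was 0.60 ± 0.20 (limma adjusted p = 0.0402), 1.51-fold higher. Of the 6 fits that leave out a library, the call held in the one without control 1 (limma adjusted p = 0.0229) and was lost in the other 5, at adjusted p-values from 0.0656 to 0.151, with log2 differences of 0.48 to 0.67.

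Casp1 encodes the caspase that canonical inflammasomes activate, and its start region (chr9:5298211-5299408) did not pass the test. Pileups were 23, 31 and 37 in control against 32, 33 and 39 in HADA. Over background the means were 16.3 ± 3.46 and 15.8 ± 1.86 (SD, n = 3 each; exact permutation p = 0.9). The median-centred difference was −0.41 ± 0.25 (limma adjusted p = 0.22). Casp4 encodes mouse caspase-11, which binds bacterial lipopolysaccharide directly. Its start region (chr9:5308351-5309605), further along the same chromosome, had pileups of 30, 26 and 46 in control against 27, 26 and 33 in HADA. Over background the means were 18.5 ± 6.28 and 13.0 ± 1.49 (SD, n = 3 each; exact permutation p = 0.3), with overlap. The median-centred difference of −0.82 ± 0.28 passed (limma adjusted p = 0.0437). It did not pass without control 3 (−0.52, limma adjusted p = 0.057), HADA 1, HADA 2 or HADA 3 (0.13, 0.118 and 0.0677). Nor did it pass after division by the background (−0.46, limma adjusted p = 0.185) or quantile normalization of the libraries (−0.51, limma adjusted p = 0.232). A second Casp4 region, 2.68 kb from the first start, had peaks of pileup 21 and 19 in HADA 1 and HADA 3 alone.

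Gsdmd encodes gasdermin D. Its start region (chr15:75733849-75734900) had pileups of 49, 40 and 51 in control against 106, 71 and 79 in HADA. Over background the groups were apart, at 25.5 ± 5.21 and 38.6 ± 5.85 (SD, n = 3 each; exact permutation p = 0.1). The median-centred difference was 0.23 ± 0.19 and did not pass (limma adjusted p = 0.361), nor did it after division by the background (0.61, limma adjusted p = 0.071). By rank of the fold it did (1.09 in normal scores, limma adjusted p = 0.0246), the single one of the 15 regions called on that measure. The plot of heights by library sets the 15 regions side by side.

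**Figure D4:**
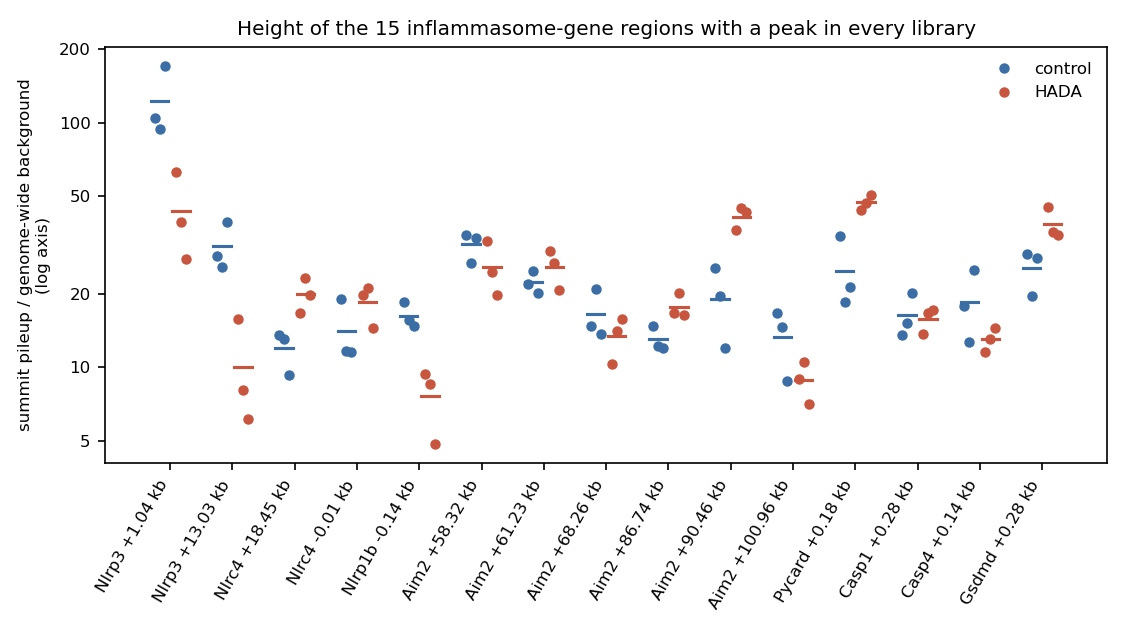
Summit pileup over the genome-wide background (vertical log axis) at the 15 shared regions, named by gene and distance of the summit from the first annotated start. Points are the 3 libraries of each group and bars are means. The groups do not overlap at 8 regions, with HADA lower at 3 (17.4% of all shared regions), both Nlrp3 regions and Nlrp1b, and higher at 5 (42.6% of all), the Nlrc4 intron, the Aim2 regions at 86.74 and 90.46 kb, Pycard and Gsdmd.

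Ratios of start regions within a library are free of any scaling between libraries. They were computed for Nlrp3 and Nlrp1b after the low values of both in HADA had been seen. They thus describe the same differences again and carry no test. The log2 ratio of the Nlrp3 to the Pycard pileup was 1.62, 2.34 and 3.00 in control against 0.52, −0.27 and −0.87 in HADA. The sensor's region was thus taller than the adapter's in each control library and in HADA 1, and shorter in HADA 2 and HADA 3. The means were 2.32 ± 0.69 and −0.20 ± 0.70 (SD, n = 3 each). The log2 ratio of Nlrp3 to Gsdmd was 2.25 ± 0.38 in control against 0.10 ± 0.41 in HADA, again without overlap (SD, n = 3 each). Over the Aim2 start region at 68.26 kb the groups overlapped, at 2.83, 2.17 and 3.65 against 2.62, 1.48 and 0.81. Smaller mean differences than at Pycard and Gsdmd were seen for Nlrp3 over Nlrc4, Casp1 and Casp4. These were −1.96, −1.51 and −1.08, HADA minus control, without overlap. For Nlrp1b the ratios over Aim2 and Casp4 overlapped, while those over Nlrc4, Pycard, Casp1 and Gsdmd were lower in HADA without overlap.

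The other genes of the pathway were a list of 24, and 16 of them had a start region in all 6 libraries. Of these 16, 2 were higher in HADA, 6 were lower and 8 did not pass the limma test, where 18.0% of all shared regions were higher and 24.4% lower. The lower ones included 4 sensor genes. The receptor genes Naip2 and Naip5, whose products pass bacterial ligands to NLRC4, had log2 differences of −0.93 ± 0.25 and −0.76 ± 0.16 (limma adjusted p = 0.0213 and 0.0121). Nlrp1a, the neighbour and paralog of Nlrp1b, had −1.27 ± 0.20 (limma adjusted p = 0.00831), and Nlrp12 had −2.19 ± 0.38 (limma adjusted p = 0.0088). These were all 4 of the list's 8 upstream sensors and receptors that had a shared start region. Of the other 4, which could not be tested, Nlrp6 went the other way over background, at 9.48 and 5.36 in control 1 and control 2 with no peak in control 3, against 10.3, 10.0 and 11.9 in HADA. Naip6 was at 20.7, 16.6 and 16.9 in control, and at 5.55 and 11.9 in HADA 1 and HADA 3 with no peak in HADA 2. Mefv had a start peak in 3 libraries (control 2, control 3 and HADA 1) and Naip1 in 1 (control 1). The Naip genes are close copies of each other, so their reads may be split between them.

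Among executors and substrates, Gsdme, a second gasdermin, was lower (−1.12 ± 0.34, limma adjusted p = 0.0327), although over background its groups overlapped, at 33.8, 16.1 and 39.9 in control against 20.5, 19.6 and 11.0 in HADA. The cytokine genes went apart, with Il1b at −2.34 ± 0.44 (limma adjusted p = 0.00952) and Il18 at 0.49 ± 0.17 (limma adjusted p = 0.0468). Il18 was at 23.7, 18.5 and 22.4 over background in control and 43.6, 42.2 and 33.4 in HADA libraries, without overlap. Panx1, a membrane channel linked to ATP release, was higher (0.74 ± 0.19, limma adjusted p = 0.0196). The kinase gene Nek7, which NLRP3 needs to assemble, was at 0.26 ± 0.16 (limma adjusted p = 0.214), and P2rx7, the ATP-gated channel upstream of NLRP3, at −0.03 ± 0.19 (limma adjusted p = 0.907). Over all 31 shared regions at the 24 genes, 4 were higher and 12 lower, with a median log2 difference of −0.34, beside the same 18.0% and 24.4% and a median of −0.04 over all shared regions. Casp12 had no start peak in any library. The calls at these 24 genes, such as those of Il18 and Gsdme, were not examined under other settings or with libraries left out.

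**Figure D5:**
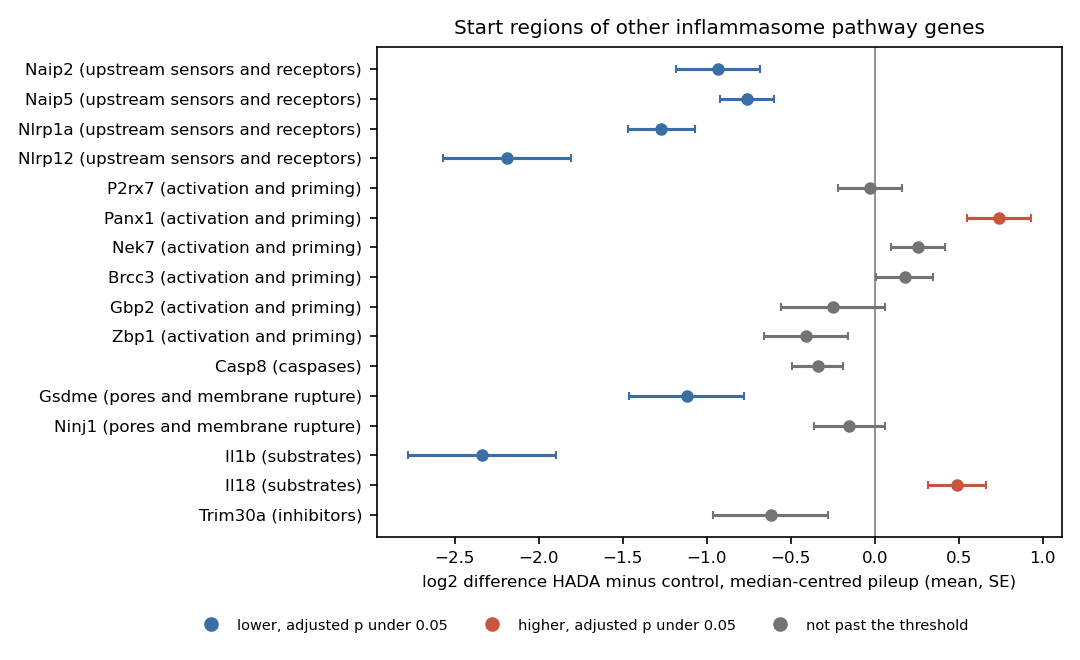
Log2 difference, HADA minus control, of median-centred summit pileup (limma, points with SE, 3 libraries a group) at the start regions of 16 other pathway genes, with their role in parentheses. The 4 sensor genes lie left of 0, Il1b and Nlrp12 farthest of all at −2.34 and −2.19, and Panx1 and Il18 lie to the right.

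Marker genes of blood cell types are given as the summed height over background of their start regions. The sums of the monocyte and NK-cell lists overlapped between groups, and those of the other lists did not. In these sums a gene without a listed start peak counts as 0, so they mix presence with height. The pan-leukocyte list had start peaks for 6 of 6 genes in every library, which was the check of the label of white blood cells. Its sums were 579, 401 and 535 in control against 722, 698 and 610 in HADA. This general list was thus also higher in HADA on this scale. After median centring 1 of its 6 start regions was higher, beside 18.0% of all shared regions. The neutrophil list summed to 182, 93.5 and 323 in control against 71.4, 41.7 and 33.4 in HADA, with a start peak in any library for 10 of 12 genes, none for Camp and Ngp, and for S100a8 and Ly6g in control 3 alone. Of its 3 shared start regions 3 were lower, beside 24.4% of all shared regions. In this list too, control 3 was the highest control library and HADA 1 the highest HADA library, as at both Nlrp3 regions. Control 1 stood above control 2 in this list and, over background, at both Nlrp3 regions. By pileup control 2 stood above control 1 at both Nlrp3 regions. The monocyte list summed to 300, 222 and 274 against 229, 210 and 198, which overlapped. Of its 6 shared start regions 5 were lower, beside the same 24.4%. Other members went the other way over background, among them Ly6c2, at 23.7 and 14.6 in control 1 and control 2 with no peak in control 3, against 41.9, 40.7 and 33.4 in HADA, while Ms4a6c and Ccr2 also had higher values in each HADA library than in any control library.

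The B-cell list summed to 233, 150 and 32.2 in control against 578, 603 and 547 in HADA. Of its shared start regions 4 of 4 were higher, beside 18.0% of all shared regions. In control 3, 6 of the 10 B-cell genes had no listed start peak, and the neutrophil gene S100a9 had none in HADA 1 and HADA 3. The T-cell list summed to 314, 216 and 277 against 395, 381 and 340. After centring 1 of its 6 shared start regions was higher, near the same 18.0%, and their median log2 difference was 0.11. The NK-cell list overlapped between groups, at 69.3, 38.0 and 18.6 against 69.2, 95.9 and 97.2. The erythroid and platelet list, in which Alas2, Gp9 and Treml1 had no start peak, summed to 84.7, 65.2 and 74.3 against 179, 152 and 148. The part of these cell types in the differences at the 8 genes was not tested.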

How the data were processed

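The labels gave each library's group and replicate number. Per the submitters' processing notes and the study's methods, the authors used Trimmomatic for trimming, Bowtie2 for alignment to GRCm39, Picard for duplicates and MACS2 for peaks, which the peak names show to be called library by library. MACS2 options and any shift for the Tn5 insertion are not given in the sources used here. The deposited lists give each peak a score, a fold enrichment over local background (a ratio), and −log10 p-values and q-values. Total read counts were not used here. The whole-number summit pileup and the local background were solved from the deposited fold and −log10 p-value, and the solved pair returned the deposited −log10 p-value with a relative error of at most 1.8e-05. The lowest local background of a library was taken as its genome-wide background.

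Peaks on the 21 main chromosomes were merged where they shared at least 1 bp. Genes and starts came from GENCODE for GRCm39. Of all peaks, 0 ended beyond a chromosome of that build, and an annotated start was found within 100 bp for 22.11% of summits, against 2.06% after a shift of 100 kb. Shared regions were compared with limma 3.58.1 (R 4.3.3) on log2(pileup + 1) centred on each library's median, with Benjamini-Hochberg adjustment over all 23970 shared regions at 0.05. The limma script was tested on simulated data. Single regions were also compared over background by an exact permutation of the group means (two-sided). Peaks were called above a limit, so at the 8 genes a region without a peak has no height and was described by presence. In sums over marker genes a missing start peak was counted as 0. All regions of the 8 genes were named. For the other pathway genes, the region nearest to an annotated start stood for the gene, as for markers. The members, gene lists and motifs were chosen with earlier results of these data known. Other scalings, measures, thresholds, a block by replicate number and left-out libraries were tried as alternatives.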

Additional observations from a re-analysis of the deposited data

How the results depend on the processing

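Heights were solved from the deposited fold and p-value, depth was known as a background pileup alone, and 3 libraries a group allow no exact p below 0.1. At the lowest peaks a few fragments decide whether a region is listed at all. Of 103 values of single regions under settings other than leaving out a library, 81 kept their direction and their side of the threshold, 14 lost the call, 3 gained it and 5 changed sign. Of 90 values with 1 library left out, these counts were 69, 16, 0 and 5. Both Nlrp3 regions and Nlrp1b kept their calls in each fit that held them, except by the rank of the fold. At a −log10 q of at least 5, the Nlrp3 intron region and Nlrp1b were no longer shared and could not be tested. The cause of the changes below was not tested.

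The number of the 15 regions that were higher in HADA was 2, and it was 1 by rank of the fold, while leaving out single libraries gave 0 to 2. The number that were lower was 6, and it was 3 after division by the background and 0 by rank of the fold (2 at an unadjusted p under 0.05 by limma), while leaving out single libraries gave 3 to 6. Over all shared regions the higher count was 4318, with 7636 after division by the background, 1573 by rank of the fold and 1064 to 4689 without single libraries. The lower count was 5853, with 1146 by rank of the fold and 2500 to 5947 without single libraries. The counts without HADA 1, HADA 2 and HADA 3 were 2062, 1064 and 1722 higher and 3667, 2500 and 3957 lower.

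By rank of the fold the sign changed at the Nlrp3 start (0.16), at Casp1 (0.07) and at the Aim2 regions at 61.23 kb (0.49) and 86.74 kb (−0.25), and after division by the background at the Aim2 region at 61.23 kb (0.19). Leaving out single libraries moved the Nlrc4 start between −0.07 and 0.14 and the Aim2 region at 86.74 kb between −0.03 and 0.12. The 2 regions listed in every HADA and no control library became 0 with the same number of strongest peaks per library, 0 at a −log10 q of at least 10 and 1 within 3 kb of a start only. The 1 region listed in every control and no HADA library became 0 with the same number of strongest peaks, 0 at a −log10 q of at least 5 or 10 and 0 within 3 kb of a start only, and 2 with merging by summit distance.

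The replicate numbers did not pair the libraries: the correlations of same-numbered libraries were −0.08, 0.08 and −0.38, and HADA 1 correlated best with control 3. With the replicate number as a block, 1 of the 15 regions was higher and 5 were lower, and 3056 and 5771 of all shared regions. Pycard (limma adjusted p = 0.0812) and the Aim2 region at 58.32 kb (0.0561) then missed the threshold.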
